A study of Mus musculus with 23 samples.

Results

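Tubulins are the building blocks of microtubules, and their transcripts were compared in the hippocampus of young and middle-aged mice. The genes were Tubg1, which encodes a gamma-tubulin, the alpha-tubulin genes Tuba1a, Tuba1b, Tuba4a and Tuba8, and the beta-tubulin genes Tubb2a, Tubb2b, Tubb3, Tubb4a and Tubb5. They were chosen by the gene symbols of the array's annotation, and probe sets matched to several tubulin symbols were kept, those of Tuba3a and Tuba3b included. Of 12422 non-control probe sets, 16 met this rule, 1 for gamma-tubulin, 8 for alpha-tubulins and 7 for beta-tubulins. The array has a probe set of a single symbol for 8251 genes. Of the 10 tubulin genes 9 had a probe set, Tuba1b only through a probe set that it shares with other symbols, and Tubb2b had none. The set was proposed because Tubg1 fell between the ages in these same arrays, so its age difference is a description and carries no test.

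RNA came from the whole hippocampus of male mice of the strain C57BL/6JNIA, 14 of them 15 months old and 9 of them 2 months old, with 1 array per mouse. Mice of both ages were housed in groups and were trained to find a platform in the Morris water maze, which tests spatial memory, before they were killed by cervical dislocation. The labels describe the samples as biological replicates, and the replicate numbers used here only name the mice of an age. The comparison asks how the hippocampal transcripts of middle-aged mice differ from those of young ones. In bulk tissue, fewer cells of a type and less RNA per cell cannot be told apart.

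Microtubules are hollow polymers of alpha- and beta-tubulin, which join as a heterodimer and add to the ends of the filament. Gamma-tubulin is not part of the filament wall. It sits in a ring-shaped complex at the centrosome and along existing microtubules, where it serves as the template from which new microtubules grow. Neurons hold large amounts of alpha- and beta-tubulin in axons and dendrites, and mice have a second gamma-tubulin gene, Tubg2, which is best known from the brain.

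The letters that follow the number of a probe set tell how specific it is. Among the 16 probe sets, 5 had the plain suffix of a unique sequence, Tubg1 among them, 7 the letter f, for probes that can be shared with related genes, 3 the letter r, for probes picked with relaxed rules, and 1 the letter i, for an incomplete set. Alpha-tubulin genes are very alike in their coding sequence, as are beta-tubulin genes, so a probe set with the letter f can read several of them. The values are MAS5 signals on a linear scale. A signal of 91.7, the 40th percentile of the probe sets, was the lower limit for a test, which 7453 probe sets and 14 of the 16 tubulin probe sets passed. Those below it were a second probe set of Tuba4a, at 4.61 ± 4.57 (SD, n = 14) at 15 months and 6.11 ± 5.98 (SD, n = 9) at 2 months, and a probe set of Tuba3a and Tuba3b with the letter r, at 22.2 ± 18.5 and 26.1 ± 20.8. Their log2 changes of -0.09 ± 0.14 (SE) and -0.13 ± 0.28 (SE) are given without a test.

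Promoter sequences are shown for Tuba1a, Tubb3 and Tubb5, the genes of single-symbol probe sets in the correlated pairs that are described further on. They are the 100 bases before the start of the gene in RefSeq, build GRCm38.p6, read 5′ to 3′ on the strand of the gene. Capitals mark TATAA, the core of the TATA box that helps place the start of transcription.
Tuba1a (chr15:98953502-98953601, minus strand): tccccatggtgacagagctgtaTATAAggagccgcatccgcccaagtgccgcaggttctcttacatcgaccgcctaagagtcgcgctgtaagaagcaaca
Tubb3 (chr8:123411453-123411552, plus strand): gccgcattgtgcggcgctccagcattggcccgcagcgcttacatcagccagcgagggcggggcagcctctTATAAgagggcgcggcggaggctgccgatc
Tubb5 (chr17:35838302-35838401, minus strand): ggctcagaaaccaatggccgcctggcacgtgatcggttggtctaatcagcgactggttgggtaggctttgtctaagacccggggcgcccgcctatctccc
The motif began 78 bases before the start in Tuba1a, 29 in Tubb2a and 30 in Tubb3. It was not found in Tubb5, Tuba1b, Tuba4a, Tuba8 or Tubb4a on the strand of the gene. Of the 8 tubulin genes in the promoter table, 3 thus held it there, against 7.48% of all 32851 promoter windows of that length, or 10.2% when both strands were searched. A match is a match of letters and not a site that was measured.

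Tubg1 stood at 958 ± 127 (SD, n = 14) at 15 months and at 1328 ± 126 (SD, n = 9) at 2 months. Among the 15-month mice the lowest signal was 772.5, the median 939 and the highest 1191. Among the 2-month mice the lowest was 1171, the median 1315 and the highest 1522. The ages met at a single point: 1 mouse of 15 months, replicate 10, lay within the range of the young mice, and 1 mouse of 2 months, replicate 9, lay within the range of the older ones. The log2 change was -0.47 ± 0.07 (SE), which is 0.722 times the 2-month level, and 14 of 14 mice of 15 months were below the 2-month mean. In the whole table, limma called 28 of 7453 probe sets at a false discovery rate of 0.05, which is 0.376%, with 3 lower at 15 months (0.0403%) and 25 higher (0.335%). The lower probe sets numbered 8 of 28 with the exact Mann-Whitney test and 21 of 60 with the 25th percentile of each array as a covariate. Tubg1 is 1 of the 3, and it was picked for that, so its SE and its place among the calls are no test of it. The array had 1 probe set for it, so no second one could be set beside it.

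**Figure D1:**
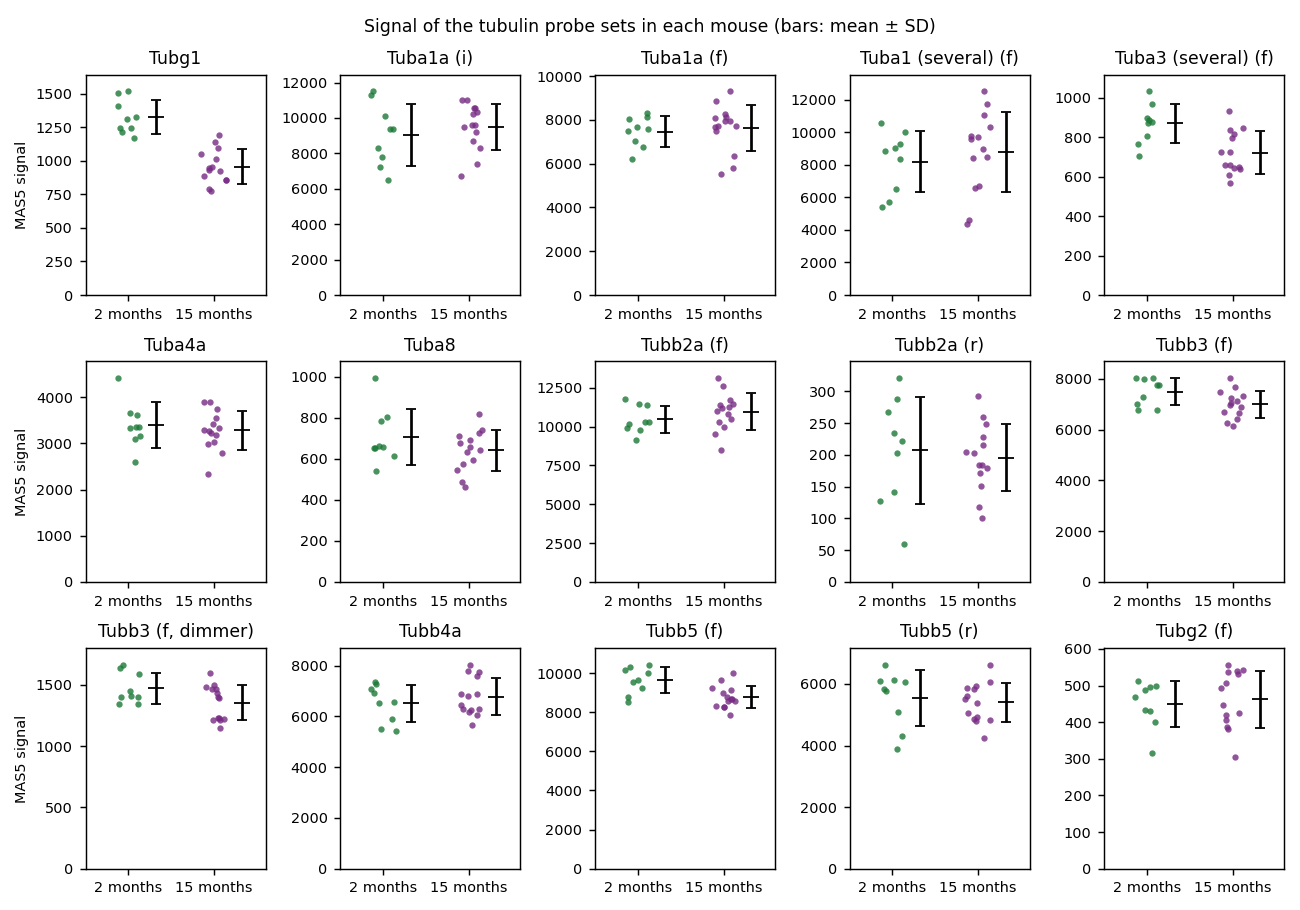
MAS5 signal (y axis, linear, from 0) of 14 tubulin probe sets and of Tubg2 in each mouse, 2 months (n = 9, green) and 15 months (n = 14, purple), with the mean ± SD beside the points. The letters f, r and i are those of the probe set. The ages overlap little in Tubg1 (958 ± 127 against 1328 ± 126) and lie over each other in most of the other panels.

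None of the alpha- and beta-tubulin probe sets was called. Of the 13 bright enough to be tested, 0 passed in limma after adjustment over all 7453 probe sets, against 0.376% of all probe sets tested. With an exact Mann-Whitney test 0 passed, and 2 had an unadjusted limma p under 0.05, against 12.4% of all. A count of 0 is thus near the share of all probe sets and does not set the 13 apart. Their log2 changes ran from -0.27 to 0.08, with 7 below 0 and 6 above, and a median of -0.03, against -0.02 for all tested probe sets. The lowest bound of their 95% intervals was -0.44, for Tuba3a and Tuba3b, and the highest 0.42, for the dim probe set of Tubb2a. The intervals of the 2 with an unadjusted p under 0.05 lay below 0, before adjustment for the number of tests. They were -0.44 to -0.10 for Tuba3a and Tuba3b and -0.23 to -0.04 for the brighter Tubb5 probe set. Changes inside a probe set's interval are not shown to be absent. The median was -0.01 over the 6 alpha-tubulin probe sets, 3 of them below 0, and -0.03 over the 7 beta-tubulin ones, 4 of them below 0.

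Among the alpha-tubulins the lowest value was that of the probe set with the letter f for Tuba3a and Tuba3b, genes best known from the testis. Its signal was 721 ± 108 at 15 months (lowest 566, median 692, highest 932) and 869 ± 99.6 at 2 months (lowest 707, median 879, highest 1034). The ranges overlapped widely, with 7 of the 14 older mice within the range of the young, but 13 of the 14 lay below the 2-month mean. The log2 change was -0.27 ± 0.08 (SE; limma unadjusted p = 0.00262, adjusted p = 0.154). The gene names of this probe set do not say which alpha-tubulin it reads in the hippocampus.

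Tuba1a, the main alpha-tubulin gene of developing neurons, was read by a pair of bright probe sets. The one with the letter f stood at 7630 ± 1064 at 15 months (lowest 5550, median 7832, highest 9328) and 7471 ± 695 at 2 months (lowest 6204, median 7575, highest 8310). The log2 change was 0.02 ± 0.08 (SE; limma adjusted p = 0.921), and 10 of the 14 older mice lay within the range of the young. The incomplete one stood at 9481 ± 1313 and 9058 ± 1757, with a log2 change of 0.08 ± 0.10 (SE; limma adjusted p = 0.787). The probe set shared by Gm5620, Tuba1a, Tuba1b and Tuba1c was the most variable of the bright ones at 15 months. It ran from 4356 to 12542 there, with a median of 9262, and from 5430 to 10549 at 2 months, with a median of 8859. The older mice thus covered the whole range of the young, and the log2 change was 0.07 ± 0.17 (SE; limma adjusted p = 0.886).

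Tuba4a encodes an alpha-tubulin that is made without the usual last tyrosine. It stood at 3281 ± 425 at 15 months and 3395 ± 495 at 2 months, with a log2 change of -0.05 ± 0.08 (SE; limma adjusted p = 0.842). Tuba8, a divergent alpha-tubulin gene, stood at 641 ± 99.8 and 707 ± 135, a log2 change of -0.13 ± 0.10 (SE; limma adjusted p = 0.597). Both had 12 or 13 of the 14 older mice within the range of the young.

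Among the beta-tubulins the probe set of lowest p was the brighter one of Tubb5, a beta-tubulin gene used in most tissues. Its signal was 8785 ± 577 at 15 months (lowest 7873, median 8680, highest 10016) and 9632 ± 668 at 2 months (lowest 8548, median 9663, highest 10434). Most older mice lay within the range of the young, 10 of 14, and 13 of 14 were below the 2-month mean. The log2 change was -0.13 ± 0.05 (SE; limma unadjusted p = 0.00833, adjusted p = 0.240). The other probe set of Tubb5, with the letter r, stood at 5398 ± 636 and 5535 ± 913, with a log2 change of -0.03 ± 0.08 (SE; limma adjusted p = 0.917).

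Tubb3, the beta-tubulin gene of neurons, had similar log2 changes in both of its probe sets, at unlike signals. The brighter one stood at 6994 ± 545 at 15 months (lowest 6141, median 7003, highest 8043) and 7491 ± 527 at 2 months (lowest 6778, median 7768, highest 8016). The dimmer one stood at 1355 ± 141 and 1470 ± 126. The log2 changes were -0.10 ± 0.05 (SE; limma adjusted p = 0.419) and -0.12 ± 0.06 (SE; limma adjusted p = 0.439), with 12 and 11 of the 14 older mice below the 2-month mean. Neither probe set passed, and both carry the letter f.

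Tubb2a, an abundant beta-tubulin gene of the brain, and Tubb4a, a beta-tubulin gene of neurons and oligodendrocytes, had log2 changes near 0. Tubb2a stood at 10957 ± 1190 at 15 months (lowest 8495, median 11112, highest 13141) and 10472 ± 882 at 2 months (lowest 9162, median 10290, highest 11765), with a log2 change of 0.06 ± 0.06 (SE; limma adjusted p = 0.720). A second probe set of Tubb2a, with the letter r, was far dimmer, at 196 ± 52.8 and 207 ± 84.2, and its log2 change was 0.00 ± 0.20 (SE; limma adjusted p = 0.999). Tubb4a stood at 6780 ± 740 and 6510 ± 737, a log2 change of 0.06 ± 0.07 (SE; limma adjusted p = 0.759).

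**Figure D2:**
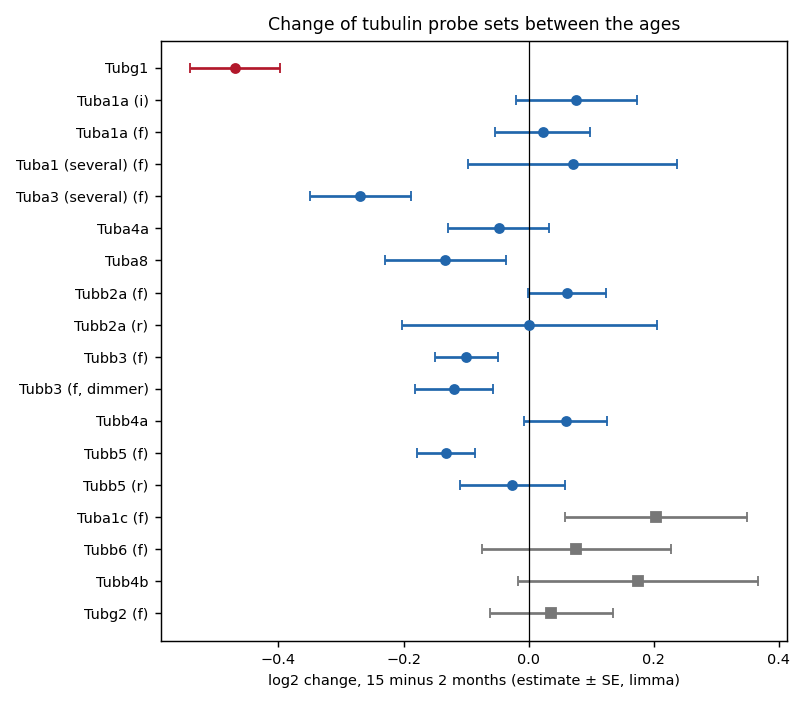
Log2 change from 2 to 15 months (x axis, log2 of signal plus 16, estimate ± SE of the limma fit) for Tubg1 (red), the 13 alpha- and beta-tubulin probe sets that were tested (blue circles) and 4 other tubulin genes (grey squares). Tubg1, chosen for its fall, is at -0.47, and the blue points lie between -0.27 and 0.08.

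Set against the other tubulins of the same mouse, Tubg1 was lower at 15 months. The log2 signal of Tubg1 minus the mean of the 7 tested beta-tubulin probe sets was -1.87 ± 0.18 (SD, n = 14) at 15 months and -1.44 ± 0.15 (SD, n = 9) at 2 months. The lowest, median and highest values were -2.10, -1.94 and -1.49 in the older mice and -1.65, -1.42 and -1.20 in the young. Of the older mice 3 of 14 reached the range of the young, and 3 of the 9 young mice lay within the range of the older. Against the 6 tested alpha-tubulin probe sets the values were -1.69 ± 0.31 and -1.27 ± 0.22. The lowest, median and highest were -2.18, -1.79 and -1.04 in the older mice and -1.55, -1.34 and -0.86 in the young. The overlap was wider here. Again 3 of 14 older mice were in the range of the young, but 8 of 9 young mice were in the range of the older. In both comparisons the 3 older mice were replicates 3, 10 and 12. On the arrays of replicates 3 and 12 the Tuba1 probe sets within the alpha-tubulin mean were low, as described further on. Each probe set weighs the same in these means, the dim one of Tubb2a included. The differences between the ages were -0.43 against the beta-tubulins and -0.42 against the alpha-tubulins. The size of such a difference between probe sets has no meaning by itself, since probe sets bind differently, and only its shift between the ages can be read. As Tubg1 was chosen for its fall, these shifts carry no test.

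Tubg2, the gamma-tubulin gene of the brain that lies next to Tubg1, stood at 463 ± 77.6 at 15 months (lowest 305, median 470, highest 557) and 449 ± 62.7 at 2 months (lowest 316, median 469, highest 513). The ages lay over each other, with a log2 change of 0.04 ± 0.10 (SE; 95% interval -0.16 to 0.24; limma adjusted p = 0.900). Tubg1 minus Tubg2 on the log2 scale was 1.03 ± 0.29 at 15 months and 1.54 ± 0.26 at 2 months. Of the 14 older mice 1 reached the range of the young, 15-month replicate 9 at 1.80. With that mouse counted, 8 of the 9 young mice lay within the range of the older ones. The probe set of Tubg2 carries the letter f, so part of its signal can come from a related sequence such as Tubg1. The remaining tubulin genes on the array did not pass either. Tuba1c had a log2 change of 0.20 ± 0.15 (SE; limma adjusted p = 0.594), Tubb4b one of 0.18 ± 0.19 (adjusted p = 0.749) and Tubb6 one of 0.08 ± 0.15 (adjusted p = 0.864).

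The genes next to Tubg1 in the RefSeq table of GRCm38.p6 were looked at up to 5 on each side. Of these 10 genes, Retreg3, Plekhh3 and Ccr10 had no probe set, and Psmc3ip and Hsd17b1 were too dim to test. Coasy, which encodes coenzyme A synthase, had a log2 change of -0.14 ± 0.09 (SE; limma adjusted p = 0.537). Mlx, a transcription factor gene, had one of -0.01 ± 0.08 (adjusted p = 0.962). On the other side of Tubg1 and Tubg2, Cntnap1, which encodes an axonal adhesion protein of the paranode, had one of 0.13 ± 0.14 (adjusted p = 0.763), and Ezh1, a histone methyltransferase gene, one of 0.14 ± 0.06 (unadjusted p = 0.0316, adjusted p = 0.354). None of the 5 tested neighbours was called, against 0.376% of all probe sets tested.

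None of the tested genes of the gamma-tubulin complex and the centrosome was called between the ages. Of 48 genes listed, 26 were on the array and 16 bright enough. Limma called 0 in either direction, against 0.376% of all probe sets tested, and Mann-Whitney called 0. An unadjusted limma p under 0.05 was found for 2 of the 16, against 12.4% of all probe sets tested. The median log2 change of the 16 was 0.05. Tubgcp3, a core subunit of the gamma-tubulin complex, had a log2 change of 0.09 ± 0.07 (SE; limma adjusted p = 0.636) and Tubgcp4, another subunit, one of -0.02 ± 0.11 (adjusted p = 0.957). Tubgcp3 and Tubgcp4 were picked from the list for their role, outside the rule for naming genes and after their values were seen. The genes of lowest p were Plk4, the kinase that starts centriole duplication (-0.34 ± 0.13, adjusted p = 0.289), Ckap5, a microtubule polymerase (0.20 ± 0.08, adjusted p = 0.333), and Cep131, a centrosomal protein gene (0.51 ± 0.28, adjusted p = 0.453).

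Across 5 further lists of the microtubule system limma called 0 of 82 genes, against 0.376% of all probe sets tested, and Mann-Whitney also called 0. An unadjusted limma p under 0.05 was found for 8 of the 82, against 12.4% of all probe sets tested. Of 19 genes of tubulin folding, which includes the CCT chaperonin that folds new tubulin, 1 had an unadjusted p under 0.05, and the median log2 change was -0.07. Cct4, a chaperonin subunit, stood at 1503 ± 181 at 15 months and 1688 ± 119 at 2 months, with a log2 change of -0.17 ± 0.07 (SE; limma adjusted p = 0.288). Cct3, another subunit, had one of -0.16 ± 0.09 (adjusted p = 0.437), with -0.09 and -0.18 in its other probe sets. Pfdn2, a subunit of prefoldin, which hands tubulin to the chaperonin, had one of 0.10 ± 0.05 (adjusted p = 0.456).

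Of 23 genes of microtubule-associated and stabilising proteins 1 had an unadjusted p under 0.05, and the median was -0.05. That gene was Map7, which recruits kinesin to microtubules, at 645 ± 70.2 and 558 ± 90.2 (log2 change 0.21 ± 0.08, limma adjusted p = 0.276). Crmp1, a collapsin response mediator (-0.13 ± 0.06, adjusted p = 0.419), and Dcx, a microtubule protein of migrating neurons (-0.20 ± 0.11, adjusted p = 0.434), followed, and both also stand among the markers of immature neurons. Of 7 genes of destabilising and severing proteins 0 had an unadjusted p under 0.05, and the median was -0.08, or -0.04 with the mean of each gene's probe sets. Stmn2, a neuronal stathmin that binds free tubulin, had a log2 change of -0.11 ± 0.06 (adjusted p = 0.413), but 0.05 in another bright probe set. Fignl1 (-0.21 ± 0.12, adjusted p = 0.483) and Stmn3, another stathmin gene (-0.08 ± 0.05, adjusted p = 0.522), were next.

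Of 4 tubulin-modifying enzymes, 1 had an unadjusted p under 0.05, and the median was -0.05. Hdac6, the deacetylase that removes the acetyl group from alpha-tubulin, stood at 1514 ± 78.9 at 15 months and 1676 ± 91.5 at 2 months. Its log2 change was -0.14 ± 0.04 (SE; limma unadjusted p = 0.00269, adjusted p = 0.154), and 0 of the 14 older mice were above the 2-month mean. Sirt2, another tubulin deacetylase, had one of -0.08 ± 0.06 (adjusted p = 0.622), and Tpgs2, of the polyglutamylase complex, one of 0.10 ± 0.11 (adjusted p = 0.767). Of 29 genes of kinesin and dynein motors, 5 had an unadjusted p under 0.05, 4 higher and 1 lower, against 12.4% of all probe sets tested, and the median was -0.03. Kif1c, a kinesin, stood at 561 ± 144 and 404 ± 82.6 (log2 change 0.44 ± 0.14, adjusted p = 0.199). Dynll2, a dynein light chain gene (0.20 ± 0.08, adjusted p = 0.282), and Ndel1, a regulator of dynein (-0.11 ± 0.04, adjusted p = 0.326), were next, and their other bright probe sets had 0.08 and 0.11.

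Cell type markers were read beside these values. Of all probe sets tested, limma called 0.335% higher and 0.0403% lower, and 12.4% had an unadjusted p under 0.05. Of 8 neuronal markers 0 were called and 0 had an unadjusted p under 0.05, with a median log2 change of 0.00, and Snap25, a synaptic protein gene, stood at 12552 ± 1485 and 12330 ± 1245. Of 10 immature-neuron markers, Tubb3 among them, 0 were called by limma or Mann-Whitney, and 2 had an unadjusted limma p under 0.05. All 10 had changes below 0, with a median of -0.19, against -0.02 for all tested probe sets. The summed signal of the 11 immature-neuron markers on the array without Tubb3, dim ones included, ran from 12134 to 15909 at 15 months. At 2 months it ran from 12665 to 15939, so that the ranges overlapped. The medians of the sum were 13859 at 15 months and 15206 at 2 months. Bright genes weigh most in such a sum. At 15 months Stmn1 stood at 6147, Crmp1 at 2813 and Nnat at 2805, against 176 for Dcx and 278 for Sox11. The overlap thus says little about the dimmer markers. Of 7 markers of dividing cells, in which centrosomes are copied, 0 were called by limma or Mann-Whitney. An unadjusted limma p under 0.05 was found for 2 of the 7, 1 higher and 1 lower. The summed signal of the 12 on the array ran from 2114 to 2483 at 15 months and from 2010 to 2401 at 2 months. Of 8 markers of microglia and macrophages limma called 3 higher and Mann-Whitney 2, and 6 had an unadjusted limma p under 0.05. The summed signal of the 9 on the array was 8630 to 11055 against 6695 to 8790. Of 7 astrocyte markers limma called 1 higher and Mann-Whitney 0, and 3 had an unadjusted limma p under 0.05. The summed signal of the astrocyte markers was 15426 to 27514 against 17162 to 20525. Limma and Mann-Whitney called 0 markers of the remaining cell types. An unadjusted limma p under 0.05 was found for 2 of 8 oligodendrocyte markers, lower, and 2 of 10 of endothelium and pericytes, higher. It was also found for 1 of 8 of meninges and fibroblasts, 1 of 5 of neighbouring brain regions and 0 of 4 of choroid plexus and ependyma. The part of these cell types in the values of Tubg1 was not tested.

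Among mice of the same age, which leaves the age difference out, the tubulins did not vary as 1 group. Over all 91 pairs of the 14 tested probe sets and both ages, 182 correlations of log2 signals were computed, with 100000 permutations at 15 months and all 362880 pairings at 2 months, and p was adjusted by Benjamini-Hochberg over the 182. At 15 months 4 pairs had an adjusted permutation p under 0.05, at 2 months 2 pairs, and 1 pair at both ages. The sign of r was the same at both ages in 60 of the 91 pairs, and r was above 0.5 at both ages in 14.

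The pair that passed at both ages was that of the 2 probe sets of Tuba1a. At 15 months r was 0.857 and rho 0.644 (n = 14, permutation p = 0.00034, adjusted 0.0164), and r was 0.565 without the 2 mice farthest from the median. At 2 months r was 0.895 and rho 0.950 (n = 9, exact permutation p = 0.00096, adjusted 0.0293), and r was 0.913 without the 2 farthest. The adjusted permutation p of rho was 0.193 and 0.0337. The probe set of several Tuba1 genes went with them at 15 months, with r of 0.901 (rho 0.749, permutation p = 3e-05, adjusted 0.00546, or 0.112 for rho, 0.714 without the 2 farthest) to the Tuba1a probe set with the letter f. With the incomplete one r was 0.865 (rho 0.749, permutation p = 0.00023, adjusted 0.0164, or 0.112 for rho, 0.618 without the 2 farthest). These 3 probe sets can share probes, so they are not independent readings.

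Tubb3 and Tubb5 made up another pair, past the threshold at 15 months only. Their bright probe sets correlated at 15 months with r of 0.810 and rho of 0.833 (n = 14, permutation p = 0.00036, adjusted 0.0164), or 0.688 without the 2 farthest mice, and the adjusted p of rho was 0.0337. At 2 months r was 0.866 and rho 0.817 (n = 9, exact permutation p = 0.00380, adjusted 0.0873, or 0.193 for rho), and r was 0.883 without the 2 farthest. Both carry the letter f, so shared probes are possible here as well. The probe set of Tuba3a and Tuba3b with the letter f also went with them. Its r was 0.590 at 15 months and 0.593 at 2 months with this Tubb5 probe set, and 0.551 and 0.719 with this Tubb3 one. Tuba8 had r of 0.706 with Tubb5 and 0.694 with Tubb3 at 2 months, but 0.244 and 0.179 at 15 months. None of these passed, with adjusted permutation p-values of 0.18 or more. The pair of Tubb5 probe sets correlated only weakly, with r of 0.267 at 15 months (permutation p = 0.355) and 0.334 at 2 months (exact permutation p = 0.384). The Tubb5 probe set with the letter r went instead with that of several Tuba1 genes at 2 months, with r of 0.945 (rho 0.883, exact permutation p = 0.00066, adjusted 0.0240, or 0.112 for rho, 0.903 without the 2 farthest). The pair of Tubb3 probe sets lay between, with r of 0.628 and 0.653 at the older and the younger age (permutation and exact permutation p adjusted to 0.145 and 0.331). Of the promoters printed above, the TATAA motif is found in that of Tubb3 but not in that of Tubb5.

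**Figure D3:**
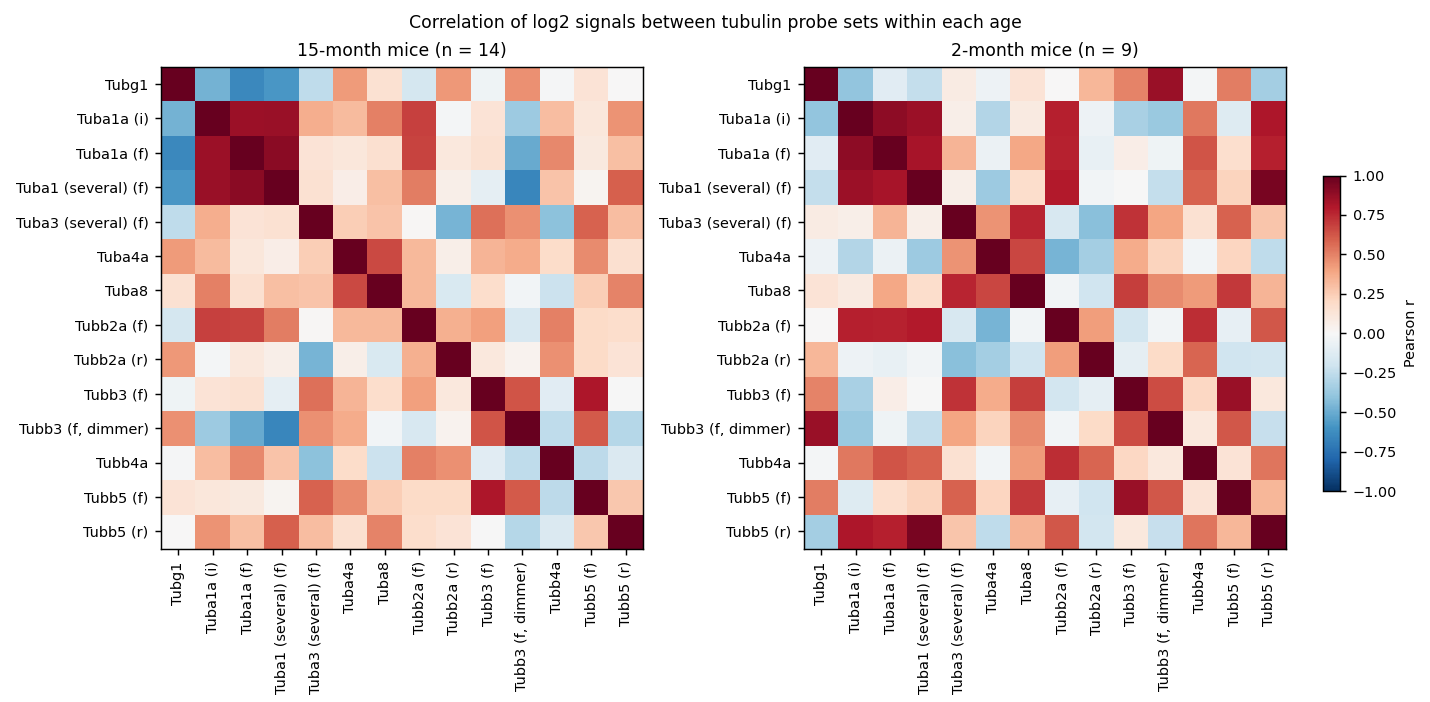
Pearson correlation of log2 signals (colour, from -1 in blue to 1 in red) between the 14 tested tubulin probe sets, over the 14 mice of 15 months (left) and the 9 mice of 2 months (right). A block of Tuba1a and the several-gene Tuba1 probe set is red at both ages, with Tubb3 and Tubb5 (f) as another red pair, and the row of Tubg1 is mixed.

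Tubg1 did not follow any of these probe sets past the threshold. Of its 26 correlations 0 had an adjusted permutation p under 0.05. The one of lowest p was with the dimmer Tubb3 probe set, with r of 0.864 at 2 months (rho 0.733, n = 9, exact permutation p = 0.00486, adjusted 0.0982) and 0.460 at 15 months (rho 0.512, n = 14, permutation p = 0.0973, adjusted 0.362). With the Tuba1a probe set with the letter f, r was -0.642 at 15 months (rho -0.451, permutation p = 0.0126, adjusted 0.135) and -0.110 at 2 months (exact permutation p = 0.780). With the several-gene Tuba1 probe set it was -0.580 (permutation p = 0.0296, adjusted 0.188) and -0.237 (exact permutation p = 0.529). Without the 2 mice farthest from the median, r with the dimmer Tubb3 probe set was 0.774 at 2 months and 0.206 at 15 months. For Tuba1a with the letter f it was then -0.621 at 15 months and 0.103 at 2 months, and for the several-gene probe set -0.647 and -0.102.

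Some of the bright tubulin probe sets, those of Tuba1a and of several Tuba1 genes at both ages, Tubb2a with the letter f at 15 months and Tubb5 with the letter r at 2 months, moved with the upper end of the array. The 99th percentile of an array's signals lay between 6622 and 6966 on 4 arrays, those of 15-month replicates 3 and 12 and of 2-month replicates 7 and 8, and between 7281 and 8678 on the other 19. On these 4 arrays, both Tuba1a probe sets and the several-gene Tuba1 probe set were lower than in every other mouse of the same age. Correlations with the log2 99th percentile, taken without the tubulin probe sets, were computed for the 14 probe sets and Tubg2 at both ages, 30 in all. For the Tuba1a probe set with the letter f, r was 0.875 at 15 months (rho 0.842, n = 14, permutation p = 0.00027, adjusted 0.0027, 0.552 without the 2 farthest arrays) and 0.844 at 2 months (rho 0.700, n = 9, exact permutation p = 0.00556, adjusted 0.0208, 0.459 without the 2 farthest). For the several-gene probe set r was 0.816 (rho 0.591, permutation p = 0.00225, adjusted 0.0112), which fell to 0.277 without the 2 farthest arrays and so rests on them, and 0.980 (rho 0.900, exact permutation p = 9.1e-05, adjusted 0.00136, 0.932 without the 2 farthest). For Tubb2a with the letter f it was 0.792 (rho 0.697, permutation p = 0.00083, adjusted 0.00574, 0.423 without the 2 farthest) and 0.774 (rho 0.633, exact permutation p = 0.0150, which does not pass after adjustment). The incomplete Tuba1a probe set had 0.901 and 0.842, with adjusted permutation p-values of 0.00136 and 0.0184. For Tubb5 with the letter r the correlation was 0.454 (adjusted permutation p = 0.295) and 0.947 (rho 0.917, exact permutation p = 0.00096, adjusted 0.00574, 0.913 without the 2 farthest).

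**Figure D4:**
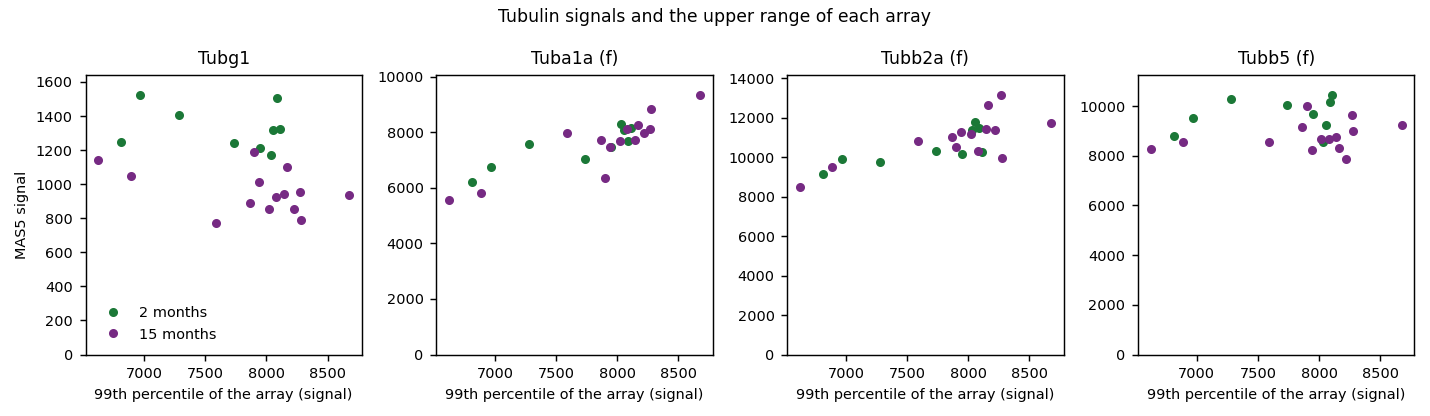
MAS5 signal (y axis, linear, from 0) of 4 tubulin probe sets against the 99th percentile of all signals on the same array (x axis, linear), 1 point per mouse, 2 months in green and 15 months in purple. Tuba1a (f) and Tubb2a (f) climb with the percentile, while Tubg1 does not, and most of its 15-month points lie below the 2-month points at like percentiles.

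Tubg1, in contrast, had r of -0.376 at 15 months (permutation p = 0.187) and -0.242 at 2 months (exact permutation p = 0.522), and the bright Tubb3 and Tubb5 probe sets with the letter f had adjusted permutation p-values of 0.440 or more at both ages. After a linear fit of each probe set on the 99th percentile within an age, an alternative chosen after seeing the data, r between the Tuba1a probe sets was 0.326 at 15 months and 0.635 at 2 months. Between the several-gene probe set and Tuba1a with the letter f it was 0.667 at 15 months and 0.00 at 2 months, and with the incomplete one 0.519 and 0.251. For the several-gene probe set and Tubb5 with the letter r it was 0.275 at 2 months, and between Tubb3 and Tubb5 0.790 and 0.878. Between Tubg1 and Tuba1a with the letter f, r after the fit was -0.698 at 15 months and 0.181 at 2 months. With the several-gene probe set it was -0.509 and -0.0005, and with the dimmer Tubb3 one 0.408 and 0.858. With Tuba4a r of Tubg1 went from 0.425 to 0.689 at 15 months and from -0.054 to -0.157 at 2 months. The source of the range of the arrays was not tested.

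The genes whose signals were most like that of Tubg1 were chosen over the 14 mice of 15 months among 5679 genes, 5 at each end. They were looked at again in the 9 mice of 2 months, which the choice had not used. Over the 5679 genes the 1st and 99th percentiles of r at 15 months were -0.575 and 0.615, and the 10 genes are the ends of that spread by choice. The highest r was that of Timeless, which encodes a protein of replication forks, at 0.879, followed by the inositol phosphate kinase gene Itpk1 at 0.774, the channel gene Trpv2 at 0.769, the exchange factor gene Rasgrp2 at 0.768 and Plekho1 at 0.762. The lowest were those of Phyh, a peroxisomal hydroxylase gene, at -0.739, the helicase gene Dhx40 at -0.736, the phosphatase subunit gene Ppp2r1b at -0.712, Cib1 at -0.697 and Ankrd49 at -0.688. In the mice of 2 months, r of Timeless was -0.06 (rho -0.07, n = 9, exact permutation p = 0.869), and 5 of the 10 genes kept their sign, or 8 of 10 without 2-month replicate 9. After adjustment over the 10, 0 had a permutation p under 0.05, and 1 did before it. That gene was Ankrd49, with r of -0.726 (rho -0.600, n = 9, exact permutation p = 0.0346, adjusted 0.346, -0.660 without the 2 farthest mice).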

How the data were processed

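Hippocampal RNA was extracted with TRIzol and labelled with biotin, per the labels' protocols. Intensities were deposited by the authors as linear MAS5 signals, per the submitters' processing notes, and the sources used here do not state the settings. Signals were analysed as log2(signal + 16), so fold changes of dim probe sets are understated. The whole table, without 66 control probe sets, was fitted with limma 3.58.1 in R 4.3.3 (trend, robust, two-sided, Benjamini-Hochberg, false discovery rate 0.05) after the 40th-percentile filter. Correlations used permutations (numpy 2.4.6, scipy 1.17.1, pandas 2.3.3, Python 3.11.15), and figures matplotlib 3.10.9. The limma fit and the correlation test were tested on simulated data. Median signals of the 23 arrays lay between 154.9 and 188, the 25th percentile was 53.6 on 15-month replicate 13 and at most 41.9 on the others, and the number of arrays limits the precision.

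The tubulins and gene lists were chosen with earlier results of these data known. The text names every tubulin on the array, the genes past the threshold or the 3 of lowest p of each list (1 probe set a gene, the brightest of 1 symbol), 5 neighbours on each side of Tubg1 and the 5 genes of highest and lowest correlation with it. Alternatives were other pseudocounts, filters, normalisation and tests, covariates for the range of the arrays, and leaving out mice.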

Additional observations from a re-analysis of the deposited data

How the results depend on the processing

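The log2 change of Tubg1 was between -0.49 and -0.44 in 32 alternatives, leaving out each mouse among them, and its shift was -0.47 to -0.37 against the alpha-tubulins, -0.46 to -0.40 against the beta-tubulins and -0.56 to -0.44 against Tubg2. Of 428 values of the 13 alpha- and beta-tubulin probe sets under alternatives, 0 passed the threshold, and the lowest adjusted p was 0.0981, for Tuba3a and Tuba3b. The log2 changes of Tuba3a and Tuba3b (-0.30 to -0.24), Tuba8 (-0.18 to -0.07), the brighter Tubb5 probe set (-0.16 to -0.12) and both Tubb3 probe sets (-0.14 to -0.09) were below 0 in all of them, and those of Tubb2a with the letter f (0.01 to 0.09) and Tubb4a (0.02 to 0.08) above 0. The count of probe sets changed between the ages was 28, from 20 to 39 with 1 mouse left out, and 60 with the 25th percentile of each array as a covariate. The count of genes whose correlation with Tubg1 kept its sign at 2 months was 5 to 8 of 10 with 1 mouse left out, the 8 without 2-month replicate 9. No paired analysis was possible because the labels give the ages no shared replicate numbers. The covariate and the correlations with the 99th percentile of the arrays were chosen after seeing the data. Probe sets with the letter f cannot be assigned to 1 tubulin gene, and 1 probe set stands for Tubg1.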
